A study of Mus musculus with 8 samples.

Results

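Cell division genes are the genes a cell switches on to copy its DNA and then to divide. They were followed here as 42 genes, 17 of S phase and 25 of mitosis, among 21497 genes measured above background in CT26 tumors. The members were the non-control array probes whose gene name stands on a fixed list, and each gene was read by its brightest probe. All 42 genes were well above background on all 8 arrays, so no member was lost to a filter on dim probes.

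CT26 is a colon carcinoma line of BALB/c mice, and 500000 cells were implanted under the skin of the flank. Mice carrying tumors then received 2 weeks of vehicle, of TP-16 (named BY001 in the labels, a small-molecule antagonist of the prostaglandin E2 receptor EP4, 75 mg/kg by mouth every day), of an antibody to the checkpoint receptor PD-1 (50 µg injected into the abdomen, 2 doses a week), or of TP-16 plus the antibody (the combination). Whole tumors were measured on 1-colour arrays, with 2 arrays per group. The age of the mice and the tumor each array came from are not given in the labels, so p-values here measure the spread between these arrays.

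Progress through the cell cycle is driven by cyclins and the kinases they activate. Cyclin E and E2F factors start S phase, when licensed origins carrying the MCM helicase fire and nucleotide-producing enzymes supply the DNA polymerases. Cyclin B and Cdk1 then drive entry into mitosis, the spindle checkpoint holds the chromosomes until they are attached, and the anaphase-promoting complex lets them part. In a tumor these transcripts come from dividing carcinoma cells and from dividing immune and stromal cells alike, and in a whole tumor fewer cells of a type and less RNA per cell cannot be told apart.

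The S phase and mitosis genes are known to be read from different promoter elements, E2F sites in the first and the paired CCAAT box and cell cycle homology region (CHR) in the second. RefSeq promoter windows (mouse build GRCm38.p6, 250 bases before to 50 bases after each annotated start) were found for 33 of the 42 genes, 14 of S phase with 15 windows and 19 of mitosis with 19 windows. The letters searched, on both strands, were TTTGAA for the CHR, CCAAT for the CCAAT box, and TTTCCCGC, TTTCGCGC, TTTGCCGC and TTTGGCGC for an E2F site. TTTGAA stood in 13 of 19 mitosis windows (68.4%), 2 of 15 S phase windows (13.3%) and 17.9% of all 32851 windows. CCAAT stood in 84.2% of mitosis windows, 66.7% of S phase windows and 37.4% of all windows. An E2F site stood in 6 of 15 S phase windows (40%), 1 of 19 mitosis windows (5.26%) and 2.26% of all windows. These matches are a description of letters and were not measured as bound sites.

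The 150 bases just before the annotated start are printed for the genes the results below turn on, on the strand of the gene, 5′ to 3′, with CHR, CCAAT and E2F letters of either strand in capitals (neighbouring E2F matches can overlap). Mki67 and Top2a had the highest log2 differences from vehicle under TP-16 and the combination, Cenpa, Bub1 and Tyms were lower with the combination under each of the scalings compared below, Cdk1 holds all 3 elements, and Mcm6 shows E2F letters of an S phase gene.
Mki67, chr7:135716380-135716529, minus strand: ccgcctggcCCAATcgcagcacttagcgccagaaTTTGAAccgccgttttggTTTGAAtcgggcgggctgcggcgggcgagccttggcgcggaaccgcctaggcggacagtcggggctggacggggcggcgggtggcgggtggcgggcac
Top2a, chr11:99024190-99024339, minus strand: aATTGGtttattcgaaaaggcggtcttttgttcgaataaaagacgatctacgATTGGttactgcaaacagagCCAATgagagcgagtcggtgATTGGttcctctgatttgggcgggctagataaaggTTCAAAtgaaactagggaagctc
Cenpa, chr5:30666736-30666885, plus strand: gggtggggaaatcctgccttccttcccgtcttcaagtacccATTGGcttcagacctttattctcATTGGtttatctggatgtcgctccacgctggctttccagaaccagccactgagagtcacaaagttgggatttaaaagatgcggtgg
Bub1, chr2:127831860-127832009, minus strand: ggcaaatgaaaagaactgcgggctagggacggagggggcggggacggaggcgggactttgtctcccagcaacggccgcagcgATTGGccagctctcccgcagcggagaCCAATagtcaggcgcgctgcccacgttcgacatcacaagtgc
Cdk1, chr10:69352913-69353062, minus strand: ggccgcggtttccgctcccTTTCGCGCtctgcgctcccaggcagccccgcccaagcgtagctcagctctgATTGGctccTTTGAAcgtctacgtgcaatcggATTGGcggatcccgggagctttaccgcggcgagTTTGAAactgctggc
Mcm6, chr1:128359706-128359855, minus strand: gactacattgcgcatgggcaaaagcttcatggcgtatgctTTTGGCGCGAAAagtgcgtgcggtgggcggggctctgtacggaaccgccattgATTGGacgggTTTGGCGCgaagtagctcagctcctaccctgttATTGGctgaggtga
Tyms, chr5:30073626-30073775, minus strand: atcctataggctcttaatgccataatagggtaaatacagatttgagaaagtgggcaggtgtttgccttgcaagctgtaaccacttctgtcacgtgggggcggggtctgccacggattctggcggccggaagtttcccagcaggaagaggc

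The stretches are shorter than the windows counted above. The full window of Cenpa holds 1 match to TTTGAA that lies outside its stretch, and the Tyms stretch holds none of the letters searched.

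A level here is the log2 intensity of a probe minus the 75th percentile of its own array, so a level of 0 is as bright as that percentile. Intensity at the 75th percentile ran from 574.898 in the first vehicle array to 1123.93 in the second combination array. By array, 51.4% to 59.7% of probes were well above background. All arrays lay on 1 slide and in 1 scan, with vehicle and TP-16 in the first row, anti-PD-1 and the combination in the second, and with TP-16 and the combination in columns 3 and 4, so slide position and treatment cannot be told apart. The choice of scaling moves the whole distribution: over all 31912 tested probes the median log2 difference from vehicle was -0.20 (combination), -0.12 (TP-16) and -0.10 (anti-PD-1) after scaling on the 75th percentile. After quantile normalization, the scaling of the deposited log2 table, it was -0.01, 0.04 and -0.01. Each difference below is therefore read against that shift, and the quantile value is given where it moves the picture.

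The label of the tumors was checked on epithelial genes. Krt18 and Krt20 were well above background on all 8 arrays, with lowest levels of 1.66 and 5.50, and Krt8 and Cdh1 were above background but dim. The defining epithelial genes Epcam and Vil1 were not well above background on both arrays of any group.

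Cell division genes spread less widely than genes at large in the values below, which were not matched for brightness. Every member but Ccne2 had a mean level above 0, while all tested probes include dim ones. The replicate spread is a standard deviation over genes, so it leaves out a shift that the members share. In the combination such a shift was seen, with a mitosis mean of 3.68 on the first array and 3.46 on the second. Replicate 1 minus replicate 2 had a standard deviation of 0.098 to 0.17 over the members, by group, and 0.42 to 0.68 over all tested probes. In the combination against vehicle, the comparison with the widest differences, log2 differences of the members ran from -0.99 to 0.38, while the middle 90% of all genes ran from -1.44 to 1.35. Of the 42 members, 38 lay inside the middle 50% of all genes, from -0.67 to 0.20. No member changed by 2-fold or more in this comparison. Among all genes, 10.4% fell and 6.65% rose by at least 2-fold with an unadjusted p of at most 0.05.

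**Figure D1:**
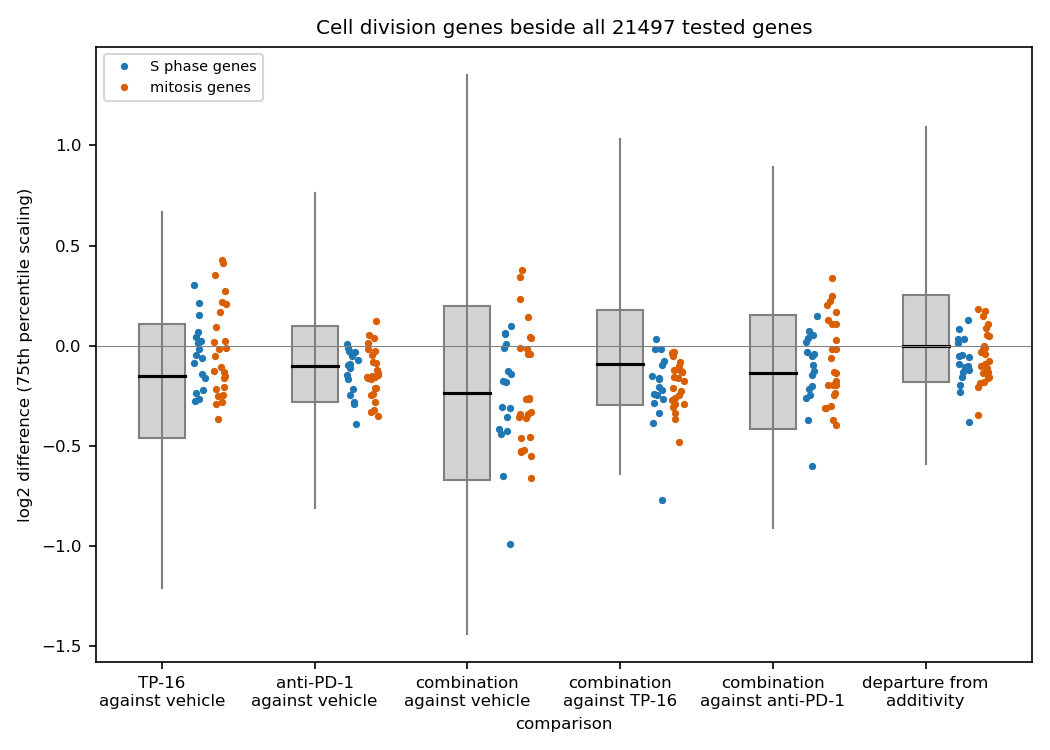
Log2 differences in the 6 comparisons, 75th percentile scaling. The grey box spans the middle 50% and the line the middle 90% of all 21497 genes, with the median in black, and each point is 1 S phase gene (blue) or 1 mitosis gene (orange). In the combination against vehicle the 42 members ran from -0.99 to 0.38, and 38 of them lay inside the grey box.

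With the combination, 11 of 42 members (26.2%) fell at an adjusted p of at most 0.05 and none rose, by limma with Benjamini-Hochberg adjustment over all 31912 tested probes. Across all 21497 genes, 26% fell and 9.6% rose by the same rule, so the share of members that fell was near the background. The median log2 difference was -0.18 for the 17 S phase genes and -0.27 for the 25 mitosis genes, against -0.20 for all tested probes. At an unadjusted p no higher than 0.05, 17 members were lower and 2 higher (40.5% and 4.76%), against 35.6% and 14.4% of all genes.

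These calls changed with the arrays and with the scaling. The second combination array was the lowest of the 8 for 28 of the 42 members and the second vehicle array for 6, while after quantile normalization they were the lowest for 16 and 14. Leaving out any 1 array lost calls among the 11, most of all the second combination array. Such a fit leaves 1 array in a group and fewer degrees of freedom, and the share of all genes was not computed for it. A loss particular to the members therefore cannot be told from a loss over all genes. The values of the 11 stayed below 0 in each of these fits. After quantile normalization 3 members fell (Tyms, Cenpa and Bub1) and 2 rose (Mki67 and Top2a), against 14.5% and 13% of all genes. The 9 members Birc5, Cdc20, Cdt1, Kif23, Mcm5, Mcm6, Pcna, Plk1 and Tpx2 changed sign between the scalings.

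**Figure D2:**
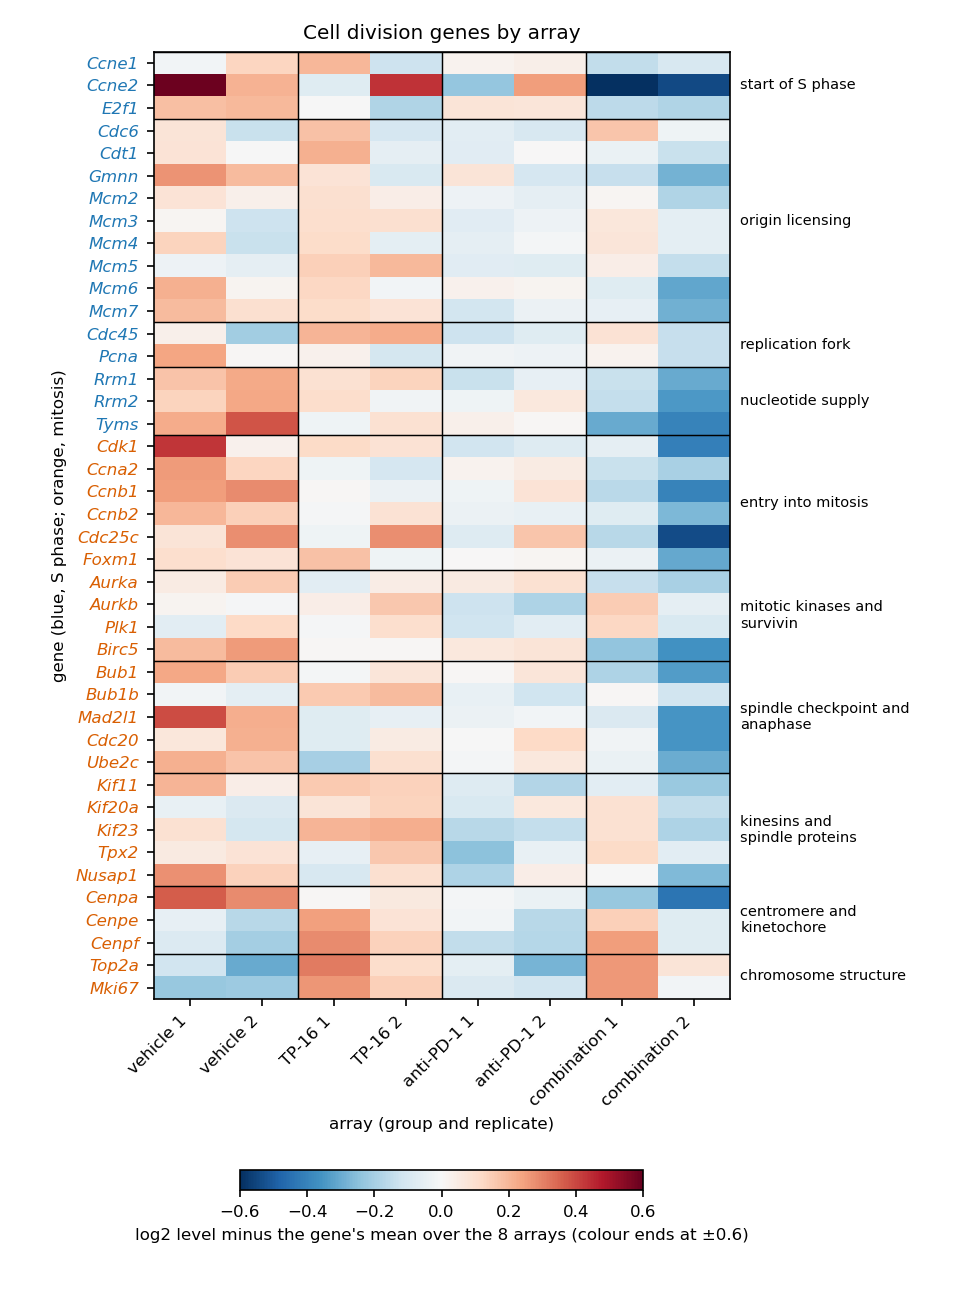
Level of each of the 42 genes on each array minus its own mean over the 8 arrays, on the log2 scale, with genes grouped by role. Blue fields dominate the second combination array, which was the lowest for 28 of 42 genes under this scaling (16 after quantile normalization), while the bottom rows (Cenpe, Cenpf, Top2a and Mki67) are higher on the TP-16 arrays than on the vehicle arrays.

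Among the genes that start S phase, Ccne2, a cyclin E that activates Cdk2, stood at levels of -2.87 and -3.25 in the vehicle tumors, -3.53 and -3.03 with TP-16, -3.69 and -3.21 with anti-PD-1, and -4.10 and -4.00 with the combination. Both combination arrays were below all others, and the difference from vehicle was -0.99 ± 0.25 (standard error; limma, adjusted p 0.0328). Its probe was the dimmest of the 42, and after quantile normalization the difference was -0.39 with an adjusted p of 0.497. E2f1, the transcription factor that turns on replication genes, differed by -0.36 ± 0.11 and just missed the threshold (adjusted p 0.0505). Ccne1, the other cyclin E, differed by -0.18 ± 0.14.

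All 3 genes of nucleotide supply fell with the combination on the 75th percentile scaling (26% of all genes did), and after quantile normalization Tyms was the one still past the threshold. Tyms, thymidylate synthase, stood at levels of 4.48 and 4.63 in the vehicle tumors, 4.23 and 4.35 with TP-16, 4.29 and 4.26 with anti-PD-1, and 3.95 and 3.86 with the combination. The combination arrays lay below every other array and the single-agent arrays lay between them and vehicle. The difference from vehicle was -0.65 ± 0.11 (limma, adjusted p 0.0133), and it was -0.43 (adjusted p 0.0268) after quantile normalization. A second, somewhat dimmer Tyms probe gave -0.60 (adjusted p 0.0161), and a dim one -0.45 (adjusted p 0.272).

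Rrm1, the large subunit of ribonucleotide reductase, stood at 4.25 and 4.30 in the vehicle tumors, 4.17 and 4.21 with TP-16, 3.94 and 4.03 with anti-PD-1, and 3.94 and 3.77 with the combination. Its difference for the combination was -0.42 ± 0.11 (adjusted p 0.0362). Rrm2, the small subunit whose supply limits the enzyme in S phase, stood at 5.45 and 5.55 in the vehicle tumors, 5.42 and 5.30 with TP-16, 5.29 and 5.38 with anti-PD-1, and 5.18 and 4.98 with the combination, a difference of -0.43 ± 0.12 (adjusted p 0.0454). Both were lower on each combination array than on each vehicle array. After quantile normalization the differences shrank to -0.21 and -0.10 and neither passed the threshold (adjusted p 0.151 and 0.581).

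Of the 9 origin licensing genes 1 fell with the combination (26% of all genes fell by the same rule), and the others did not pass the threshold. It was Gmnn, geminin, which blocks a second round of licensing. Its levels were 4.93 and 4.85 in the vehicle tumors, 4.74 and 4.57 with TP-16, 4.74 and 4.56 with anti-PD-1, and 4.52 and 4.38 with the combination, and the difference of -0.44 ± 0.13 had an adjusted p of 0.0454. After quantile normalization it was -0.18 (adjusted p 0.376). A second Gmnn probe gave -0.43 (adjusted p 0.0368) on the 75th percentile scaling. Subunits of the MCM helicase, which opens the DNA at origins, differed by -0.31 (Mcm7 and Mcm6) to 0.06 (Mcm3), with adjusted p of 0.0993 and 0.129 for Mcm7 and Mcm6. Dim second probes gave -0.48 for Mcm7 (adjusted p 0.0314) and 0.09 for Mcm6 (adjusted p 0.744). After quantile normalization Mcm3 stood highest of the 9, at 0.38 (adjusted p 0.0566).

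Mcm2, a subunit often used as a marker of cells licensed to divide, stood at 3.50 and 3.45 in the vehicle tumors, 3.52 and 3.46 with TP-16, 3.39 and 3.37 with anti-PD-1, and 3.43 and 3.24 with the combination. Mcm3 stood at 5.39 and 5.26 in the vehicle tumors, 5.48 and 5.48 with TP-16, 5.31 and 5.35 with anti-PD-1, and 5.44 and 5.32 with the combination. The 8 values of each lay within a narrow band, and the combination differences were -0.14 ± 0.11 and 0.06 ± 0.11 (adjusted p 0.363 and 0.69). Cdc6, which loads the helicase, stood at 0.52 and 0.31 in the vehicle tumors, 0.62 and 0.34 with TP-16, 0.38 and 0.34 with anti-PD-1, and 0.61 and 0.41 with the combination, a difference of 0.10 ± 0.15. Cdt1, its partner in loading, differed by -0.12.

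At the replication fork, Pcna, the sliding clamp of the polymerases, was among the brightest members. It stood at 6.65 and 6.42 in the vehicle tumors, 6.44 and 6.31 with TP-16, 6.39 and 6.39 with anti-PD-1, and 6.44 and 6.28 with the combination. The TP-16 and combination arrays overlapped the vehicle arrays, and both anti-PD-1 arrays lay below them. The combination difference was -0.18 ± 0.13 (adjusted p 0.32) and it turned to 0.36 (adjusted p 0.131) after quantile normalization, the widest change of sign among the members. Cdc45, part of the active helicase, stood at 0.96 and 0.72 in the vehicle tumors, 1.14 and 1.16 with TP-16, 0.81 and 0.86 with anti-PD-1, and 1.02 and 0.79 with the combination. Both TP-16 arrays were above all others for Cdc45, and the TP-16 difference of 0.30 ± 0.13 had an unadjusted p of 0.0669 by limma (adjusted p 0.221). A second, dimmer Cdc45 probe gave 0.03 for TP-16 (adjusted p 0.894).

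Of the 6 genes of entry into mitosis, 2 fell with the combination, Ccnb1 and Ccna2 (26% of all genes fell by the same rule). Ccnb1, cyclin B1, the partner of Cdk1, stood at 4.17 and 4.20 in the vehicle tumors, 3.93 and 3.89 with TP-16, 3.89 and 3.999 with anti-PD-1, and 3.76 and 3.52 with the combination. The difference from vehicle was -0.55 ± 0.12 (limma, adjusted p 0.023), and -0.38 (adjusted p 0.0639) after quantile normalization. Its 3 dimmer probes gave -0.53, -0.49 and -0.20 (adjusted p 0.0525, 0.0212 and 0.364). Ccna2, cyclin A2, which acts in both S phase and early mitosis, stood at 4.49 and 4.37 in the vehicle tumors, 4.22 and 4.14 with TP-16, 4.26 and 4.29 with anti-PD-1, and 4.11 and 4.05 with the combination, a difference of -0.35 ± 0.10 (adjusted p 0.0483). All 4 arrays that received TP-16 lay below all 4 that did not for this probe. A second Ccna2 probe of similar brightness gave -0.24 for the combination (adjusted p 0.186) and -0.07 for TP-16. With the probes averaged the combination difference was -0.30 (adjusted p 0.0707), with normexp background correction -0.23 (adjusted p 0.0859) and after quantile normalization -0.13 (adjusted p 0.423).

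Cdk1, the mitotic kinase itself, stood at 3.56 and 3.16 in the vehicle tumors, 3.25 and 3.22 with TP-16, 3.02 and 3.05 with anti-PD-1, and 3.08 and 2.72 with the combination. The second vehicle array was close to the TP-16 arrays, and the combination difference of -0.46 ± 0.18 missed the threshold (adjusted p 0.104). Cdc25c, the phosphatase that releases Cdk1, stood at 2.77 and 2.98 in the vehicle tumors, 2.67 and 2.98 with TP-16, 2.62 and 2.86 with anti-PD-1, and 2.53 and 2.16 with the combination, with its low value on the second combination array. Its difference was -0.53 ± 0.19 (adjusted p 0.0823). Ccnb2, cyclin B2, and Foxm1, a transcription factor for mitosis genes, differed by -0.34 and -0.26 (adjusted p 0.0673 and 0.184). A second, dimmer Foxm1 probe ran the other way, at 0.43 (adjusted p 0.0465).

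Among the mitotic kinases and their partners, 1 of 4 fell with the combination, a share near the 26% of all genes that fell. Birc5, survivin, a subunit of the chromosomal passenger complex with Aurora B, was the brightest member and stood at 6.69 and 6.75 in the vehicle tumors, 6.50 and 6.51 with TP-16, 6.56 and 6.57 with anti-PD-1, and 6.26 and 6.14 with the combination. Its difference was -0.52 ± 0.10 (adjusted p 0.0172) after scaling on the 75th percentile, yet 0.0031 (adjusted p 0.985) after quantile normalization. A second, dimmer Birc5 probe gave -0.32 (adjusted p 0.0611) on the first scaling. Aurka, Plk1 and Aurkb, kinases of the centrosome, of the spindle and of the passenger complex, differed by -0.27, -0.01 and 0.04.

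Of the 5 genes of the spindle checkpoint and anaphase, 2 fell, against 26% of all genes. Bub1, a checkpoint kinase at the kinetochore, stood at 2.54 and 2.46 in the vehicle tumors, 2.30 and 2.38 with TP-16, 2.31 and 2.38 with anti-PD-1, and 2.12 and 1.97 with the combination, a difference of -0.45 ± 0.11 (adjusted p 0.029) and -0.42 (adjusted p 0.0339) after quantile normalization. Mad2l1, MAD2, which holds back the anaphase-promoting complex, stood at 4.78 and 4.61 in the vehicle tumors, 4.32 and 4.34 with TP-16, 4.35 and 4.37 with anti-PD-1, and 4.30 and 4.03 with the combination. All 6 treated arrays were below both vehicle arrays for Mad2l1, and the combination difference was -0.53 ± 0.13 (adjusted p 0.0316). After quantile normalization it was -0.29 (adjusted p 0.145). Its second probe gave -0.13 (adjusted p 0.607) on the 75th percentile scaling. Bub1b, BUBR1, another checkpoint protein, differed by -0.02. Cdc20, which activates the anaphase-promoting complex, and Ube2c, its ubiquitin-conjugating enzyme, differed by -0.33 and -0.36 (adjusted p 0.137 and 0.113).

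None of the 5 kinesins and spindle proteins passed the threshold with the combination, where 26% of all genes fell and 9.6% rose. Kif11, the motor that pushes the spindle poles apart, and Nusap1, a microtubule-binding protein, differed by -0.26 and -0.34. Tpx2, an activator of Aurora A, and the cytokinesis motors Kif23 and Kif20a lay between -0.04 and 0.04. A second, dimmer Kif23 probe gave -0.28 for the combination (limma, adjusted p 0.0901) and 0.56 for TP-16 (adjusted p 0.0852). Another dim Kif23 probe gave 0.02 for the combination (adjusted p 0.951).

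Of the 3 centromere and kinetochore genes, 1 fell with the combination (26% of all genes did), and Cenpf and Cenpe did not pass the threshold. Cenpa, the histone H3 variant that marks the centromere, stood at 4.11 and 4.03 in the vehicle tumors, 3.75 and 3.80 with TP-16, 3.73 and 3.71 with anti-PD-1, and 3.52 and 3.31 with the combination. Both combination arrays were lowest and both vehicle arrays highest, and the difference was -0.66 ± 0.12 (adjusted p 0.0136), with -0.50 (adjusted p 0.0296) after quantile normalization. Cenpf, a large kinetochore protein of late G2 and mitosis, stood at 3.51 and 3.39 in the vehicle tumors, 3.88 and 3.73 with TP-16, 3.45 and 3.42 with anti-PD-1, and 3.84 and 3.52 with the combination. It was higher on both TP-16 arrays than on any vehicle or anti-PD-1 array, with differences of 0.35 ± 0.14 for TP-16 and 0.23 ± 0.14 for the combination (adjusted p 0.195 and 0.253). Cenpe, a kinetochore motor, differed by 0.27 for TP-16 and 0.14 for the combination.

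Mki67, which codes for the Ki-67 protein that coats mitotic chromosomes and is widely used to count dividing cells, stood at 4.30 and 4.31 in the vehicle tumors, 4.80 and 4.67 with TP-16, 4.44 and 4.42 with anti-PD-1, and 4.79 and 4.51 with the combination. All 4 arrays that received TP-16 lay above all 4 that did not. The difference from vehicle was 0.43 ± 0.13 for TP-16, 1.34 times vehicle (limma, unadjusted p 0.0167, adjusted p 0.124). It was 0.35 ± 0.13 for the combination, 1.27 times vehicle (unadjusted p 0.0374, adjusted p 0.0884), and 0.12 for anti-PD-1.

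Top2a, topoisomerase II alpha, which untangles chromosomes and like Ki-67 peaks in G2 and mitosis, stood at 4.21 and 4.02 in the vehicle tumors, 4.63 and 4.43 with TP-16, 4.26 and 4.05 with anti-PD-1, and 4.59 and 4.40 with the combination. Here too the arrays with TP-16 lay above those without. The difference was 0.42 ± 0.15 for TP-16 (unadjusted p 0.0324, adjusted p 0.16) and 0.38 ± 0.15 for the combination (unadjusted p 0.0448, adjusted p 0.1). After quantile normalization the combination differences of Mki67 and Top2a were 0.58 and 0.61 (adjusted p 0.0323 and 0.0489). With normexp background correction both rose in TP-16 alone as well, by 0.52 and 0.49 (adjusted p 0.0342 and 0.0433), a setting in which 2.62% of all genes rose with TP-16. A second Top2a probe gave 0.44 for the combination, while the dim ones gave -0.42 and 0.15, none past the threshold.

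**Figure D3:**
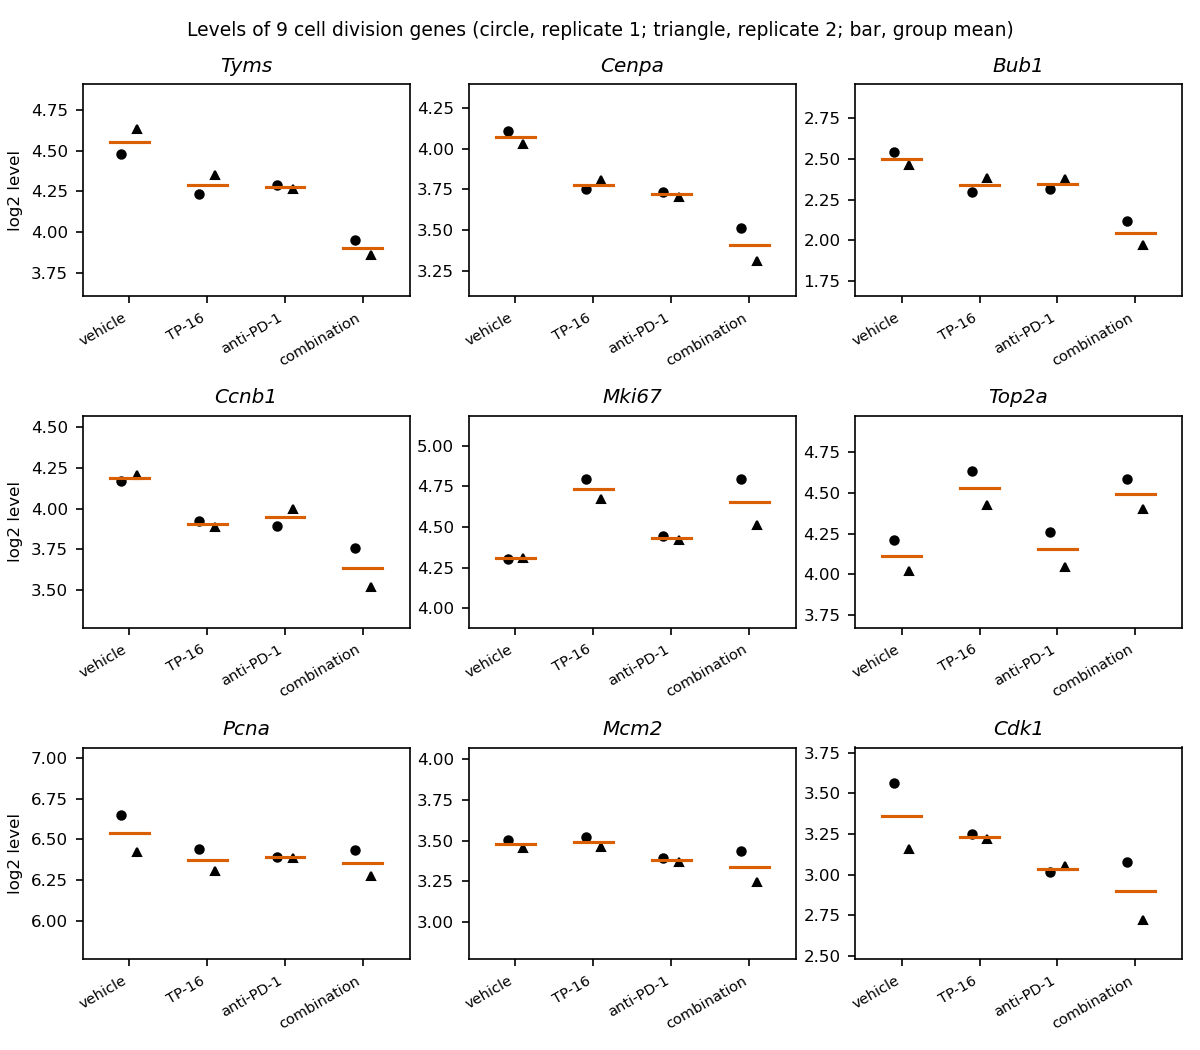
Level of 9 members on each array, as log2 intensity relative to the 75th percentile, with every panel spanning the same range of the log2 scale. Tyms, Cenpa and Bub1 are lowest on the combination arrays, Mki67 and Top2a are higher on the 4 arrays that received TP-16 than on the 4 that did not, and the values of Mcm2 span the least of the 9.

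**Figure D4:**
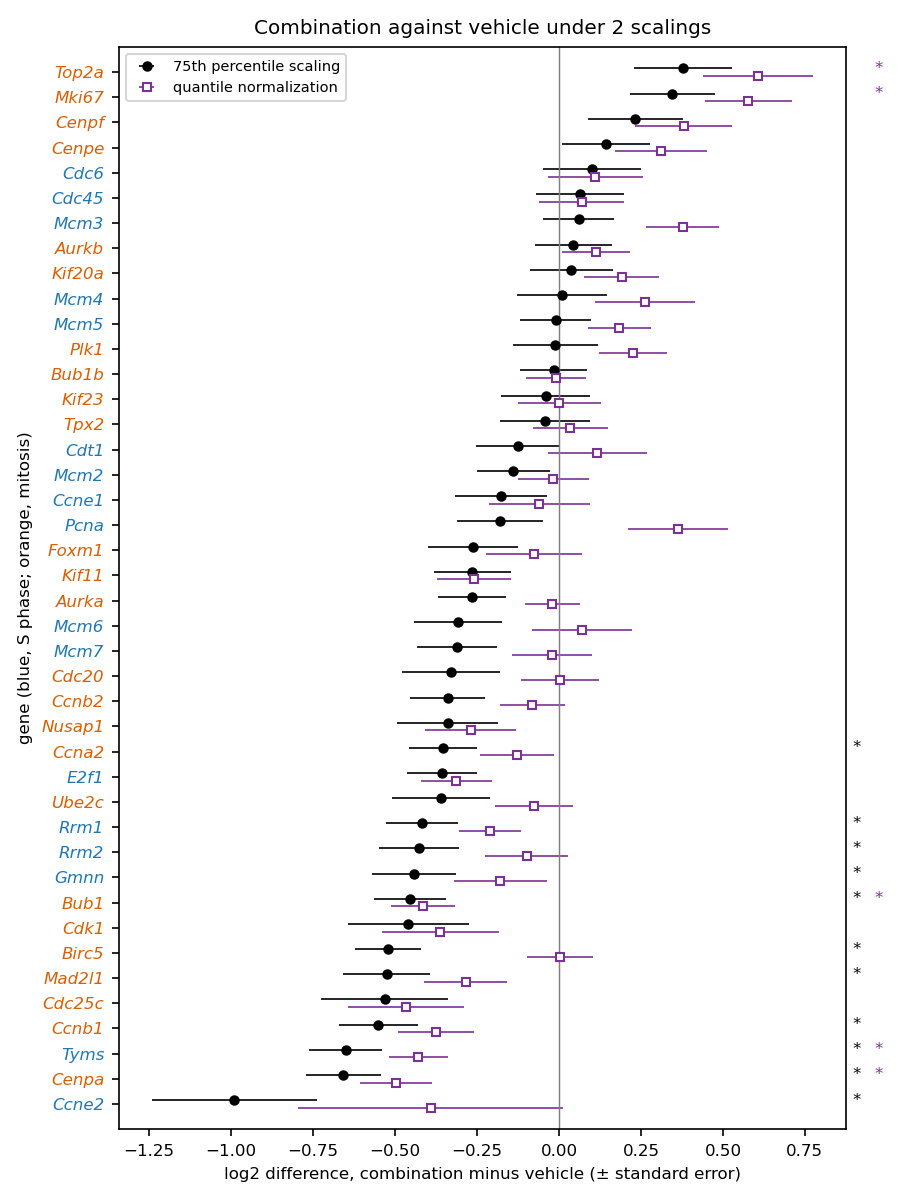
Log2 difference of the combination from vehicle for each of the 42 members, with its standard error, after scaling on the 75th percentile (black) and after quantile normalization (open squares). Stars at the right mark an adjusted p of at most 0.05 under each scaling, 11 genes in black and 5 in purple. Top2a and Mki67 stand at the top and Cenpa, Tyms and Ccne2 at the bottom under the first scaling.

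With TP-16 alone, no member passed an adjusted p of 0.05 by limma (0.0558% of all genes did), and 5 members had an unadjusted p of at most 0.05 against 27.9% of all genes. Those 5 were Mki67 and Top2a, which were higher, and Mad2l1, Cenpa and E2f1, which were lower at -0.37, -0.29 and -0.28. The TP-16 arrays lay wholly above the vehicle arrays for 11 members (26.2%, against 16.5% of all genes) and wholly below for 16 (38.1%, against 41.5%). After quantile normalization this turned to 12 wholly above (28.6%, against 26.1%) and 7 wholly below (16.7%, against 27.1%). The median differences were -0.05 for the S phase genes and -0.05 for the mitosis genes, against -0.12 for all tested probes.

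Under anti-PD-1 alone 37 of 42 members were below vehicle in value on the 75th percentile scaling, against 64% of all genes, and 27 of those 37 also were after quantile normalization, where 15 members stood above vehicle and 52.7% of all genes below it. No member passed the adjusted threshold by limma (0.0744% of all genes did). Cenpa, Mad2l1, Rrm1 and Tyms were the 4 members with an unadjusted p of at most 0.05 (15% of all genes), at -0.35, -0.33, -0.29 and -0.28. The median differences were -0.10 in S phase and -0.15 in mitosis, against -0.10 for all tested probes. The anti-PD-1 and TP-16 differences share the vehicle arrays.

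In the combination against TP-16 alone, which asks what the antibody adds, 41 of 42 members were below 0 in value, against 60.5% of all genes, and Cdc6 was the exception at 0.03. The second combination array, the lowest of the 8 for 28 of the 42 members, enters this count. The S phase median was -0.21 and the mitosis median -0.16, against -0.08 for all tested probes. The mitosis median minus that of all tested probes was -0.078, and it was -0.030 without the second combination array. For S phase this shift was -0.13, and it ran from -0.19 to -0.051 with single arrays left out. No member passed the adjusted threshold by limma, nor did any gene, and 7 members had an unadjusted p of at most 0.05 (16.7%, against 23.8% of all genes). These were Ccne2, Cdc25c, Tyms, Cenpa, Rrm1, Birc5 and Bub1, from -0.77 to -0.29. After quantile normalization 32 of 42 members were below TP-16 alone, against 57.2% of all genes.

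In the combination against anti-PD-1 alone, 28 members were below 0 and 14 above 0 in value, where 63.3% of all genes were below 0. After quantile normalization the balance turned, with 18 members below 0 and 24 above, where 53.8% of all genes were below 0. None passed the adjusted threshold by limma (0.014% of all genes did), and 5 had an unadjusted p of at most 0.05 against 29.2% of all genes. Those were Tyms, Birc5, Ccnb1, Cenpa and Bub1, at -0.37, -0.37, -0.31, -0.31 and -0.30. Top2a and Mki67 were at 0.34 and 0.22 (adjusted p 0.215 and 0.321). Whether the combination departed from the sum of its agents was tested as an interaction, and no member had an adjusted or unadjusted p of at most 0.05, against 7% of all genes at the unadjusted threshold.

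Other cell cycle genes were read from further lists. Of 34 further replication genes, 16 fell with the combination (47.1%, against 26% of all genes) and none rose (limma, adjusted p of at most 0.05), with a median of -0.41. After quantile normalization 11 fell (32.4%, against 14.5%) and the median was -0.32. The widest falls were Rpa3, a subunit of the single-strand binding protein (-1.11, adjusted p 0.0102), and Dut, which destroys dUTP (-0.92, adjusted p 0.0109). The levels of Rpa3 were 5.94 and 5.81 in the vehicle tumors, 5.24 and 5.33 with TP-16, 5.43 and 5.36 with anti-PD-1, and 4.95 and 4.59 with the combination. All 6 treated arrays lay below both vehicle arrays. Of 39 further mitosis genes, 8 fell and none rose, and this share of 20.5% was below the 26% of all genes. After quantile normalization 5 fell (12.8%, against 14.5%), and the median went from -0.21 to -0.08. Cdca3, which triggers mitotic entry, had the lowest value among them (-0.92, adjusted p 0.0115).

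The E2F and MuvB factors, which govern both classes, held 4 that fell and 1 that rose of 14 (28.6% and 7.14%, against 26% and 9.6% of all genes), and the counts were 4 and 1 after quantile normalization too. Tfdp2, the partner of E2F proteins, was at -0.88, and E2f2, an E2F that activates its targets, was at 0.58 (adjusted p 0.0113 and 0.0251). Of 10 cell cycle inhibitors and pocket proteins, Cdkn1c and Rbl2 rose (20%, against 9.6% of all genes). Cdkn1c, the inhibitor p57, stood at -1.61 and -1.80 in the vehicle tumors, -0.86 and -1.86 with TP-16, -0.76 and -1.08 with anti-PD-1, and 0.71 and 1.62 with the combination. Both combination arrays were far above the rest, at a difference of 2.86 ± 0.42 (adjusted p 0.0108). Rbl2, the pocket protein p130 of resting cells, stood at -0.90 and -0.78 in the vehicle tumors, -0.24 and -0.26 with TP-16, -0.54 and -0.59 with anti-PD-1, and -0.08 and 0.12 with the combination, a difference of 0.86 ± 0.12 (adjusted p 0.0102).

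Another 4 inhibitors and pocket proteins passed only the unadjusted threshold, at which 14.4% of all genes were higher and 35.6% lower. Cdkn2a, the p16 and Arf locus, and Rbl1, p107, were at 1.29 and 0.37, while Cdkn1a, p21, and Cdkn2d, p19, were at -0.55 and -0.29 (adjusted p 0.0758, 0.0962, 0.0694 and 0.088). Among the 6 G1 cyclins and their kinases, Cdk4 fell (16.7%, against 26% of all genes), and no other passed either threshold. Its difference was -0.76 ± 0.13 (adjusted p 0.013), and -0.31 with an adjusted p of 0.0909 after quantile normalization. After quantile normalization Ccnd3 and Ccnd1, D-type cyclins, rose instead (33.3%, against 13% of all genes), by 0.56 and 0.49 (adjusted p 0.0265 and 0.0413).

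With the single agents no gene of these lists passed the adjusted threshold. For TP-16 the widest values at an unadjusted p of at most 0.05 were Rbl2 (0.59), E2f2 (0.41) and Ccnd3 (0.34) above vehicle, and Pola1 (-0.64), Rpa3 (-0.58) and Spc24 (-0.51) below. For anti-PD-1 they were Rpa3 (-0.47), Pbk (-0.40) and Gins2 (-0.39), all below.

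**Figure D5:**
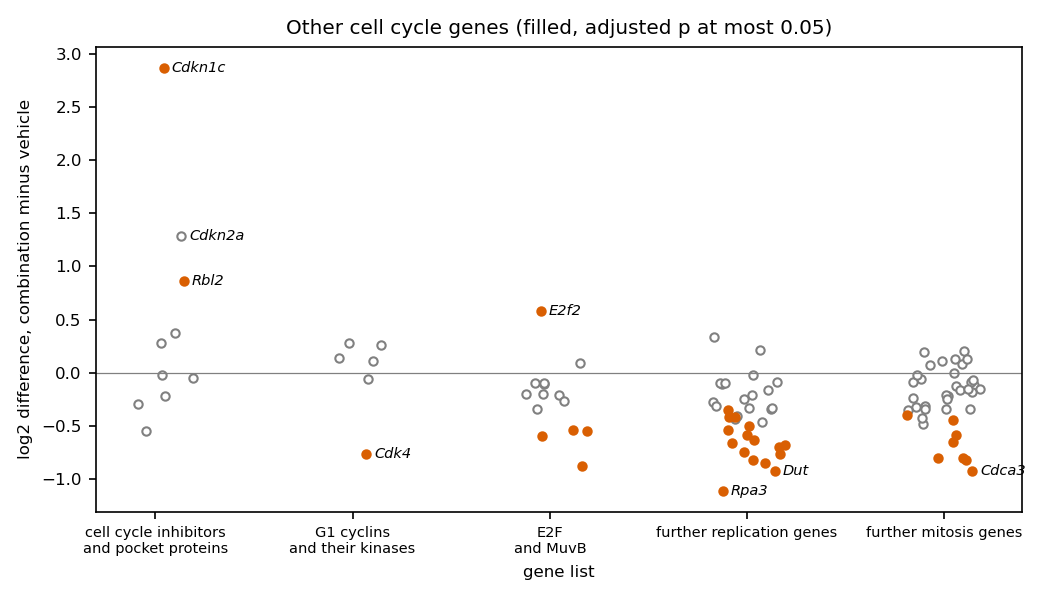
Log2 difference of the combination from vehicle, after scaling on the 75th percentile, for the genes of the 5 further cell cycle lists. Each point is 1 gene, filled where the adjusted p is at most 0.05. Among the 34 further replication genes 16 are filled and all of these lie below 0, and Cdkn1c stands alone at 2.86.

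Markers of other cells were read for the combination against vehicle, where 26% of all genes fell and 9.6% rose at the adjusted threshold. Rises made up 46.2% of the T and NK cell list, 71.4% of the fibroblast list and 55.6% of the macrophage and monocyte list. Falls made up 100% of the measured red blood cell genes and 40% of the neutrophil list. The epithelial list (33.3% lower) and the hypoxia and glycolysis list (22.2% lower) were near the share of all genes. Of 13 T and NK cell genes, 6 rose and none fell with the combination, and their summed intensity relative to the 75th percentile was 14.5 to 59.8 in the vehicle tumors, 64.0 to 71.5 with TP-16, 67.4 to 91.9 with anti-PD-1 and 85.4 to 111.5 with the combination. Of 7 fibroblast genes, 5 rose, with sums of 242 to 282 in the vehicle tumors and 463 to 485 with the combination. All 3 measured red blood cell genes fell, from sums of 280 to 428 down to 63.2 to 80.2. Of 6 measured epithelial genes, Krt18 and Cdx2 fell, and their list summed to 74.4 to 82.8 in the vehicle tumors and 58.7 to 85.7 with the combination. Of 9 macrophage and monocyte genes, 5 rose and Lyz2 fell, with a list median of 0.94 (1.27 after quantile normalization, where 6 rose and none fell), while their summed intensity was 614 to 669 in the vehicle tumors and 605 to 668 with the combination. Of 5 neutrophil genes, S100a8 and S100a9 fell, and the sums were 106 to 116 in the vehicle tumors and 54.8 to 69.3 with the combination. Of 6 B and plasma cell genes 2 rose and 2 fell, of 5 endothelial genes 1 rose, and of 9 hypoxia and glycolysis genes Ldha and Pgk1 fell, although after quantile normalization none fell and Pgk1 and Ndrg1 rose. No muscle, adipocyte or epidermis gene passed the threshold. With the single agents no marker gene passed the adjusted threshold on the 75th percentile scaling. After quantile normalization 1 of the 3 red blood cell genes fell with TP-16 (33.3%, against 0.209% of all genes). At the unadjusted threshold of 0.05 all 3 red blood cell genes were at least 2-fold lower under each of TP-16 and anti-PD-1. Their sums were 83.0 to 96.2 and 136 to 141. At that threshold 6 and 5 of the 13 T and NK cell genes were higher, where 27.9% and 15% of all genes passed in either direction. The part of these shifts in the cell division values was not tested.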

How the data were processed

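Total RNA of whole CT26 tumors was labelled with Cy3 and hybridised to Agilent mouse 1-colour arrays, 8 arrays in 4 groups of 2, grouped by the labels. The deposited intensity values were read by the authors with Agilent Feature Extraction 10.7.1.1 (background-subtracted, per the file headers). The deposited log2 values are the authors' quantile-normalized table and were used as an alternative. The column kits named in the labels and the TRIzol method named in the study differ, and the extraction used was not settled.

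Control spots and 38 probes whose spots were all marked as outliers on at least 1 array were left out. The log2 intensity minus each array's 75th percentile was fitted with limma 3.58.1 (R 4.3.3), 1 mean per group, 4 residual degrees of freedom, on the 31912 probes that passed the scanner's test against background on each array of 1 group or more, with Benjamini-Hochberg adjustment over all of them and a threshold of 0.05. The background counts use the brightest tested probe of each of 21497 genes. Precision is set by the number of arrays, and no probe used was saturated. The fit was checked on simulated data. Every member is named, and values per array are given for Mki67, Top2a, Cdk1, Pcna, Mcm2, every member past the threshold and the 3 highest and 3 lowest combination differences in each class. Of the further cell cycle lists, the 3 widest rises and falls per comparison with vehicle are named, with each inhibitor and G1 cyclin past a threshold. The members and lists were chosen with earlier results of these data known. Tried as alternatives were normexp background correction (offset 50), quantile normalization, other filters on dim probes, the deposited table, a replicate block, the compared groups alone, robust moderation with a trend, the t-test of the methods, leaving out each array and averaging the probes of a gene. Promoter letters came from RefSeq. Python 3.11.15, pandas 2.3.3 and matplotlib 3.10.9 were used.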

Additional observations from a re-analysis of the deposited data

How the results depend on the processing

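The 11 members that fell with the combination became 5 called members after quantile normalization and 5 with the deposited log2 values (3 lower and 2 higher each), 2 with no filter on dim probes, 7 with the replicate block, 0 when only the vehicle and combination arrays were fitted and 0 by the methods' t-test after Benjamini-Hochberg adjustment (11 members at its unadjusted p, and 19 by limma). Leaving out 1 array also lost calls, and no share of all genes was computed for those fits. Fitting fewer samples leaves fewer degrees of freedom, and otherwise the cause was not tested. The share of all genes that fell was 14.5% with the deposited values, 12.2% with no filter and 22.7% with the block. It was 0% with the compared groups alone and by the t-test, where no gene passed in either direction. The calls of the further cell cycle lists and of the markers were therefore lost there as well. With normexp correction 2 members were called for TP-16 (19.8% of all genes in either direction) and 2 for the combination against anti-PD-1 (23.9%), and moderation with a trend called 1 in the latter (10.5%). The values of the 11 stayed below 0 under all these settings, except Birc5 after quantile normalization and in the deposited values.

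The median of a class minus that of all tested probes moved past its spread between arrays (0.087 for S phase, 0.12 for mitosis) in these cases. Normexp correction gave 0.22 for S phase under TP-16, 0.21 and 0.10 for S phase and mitosis under the combination, and 0.14 and 0.16 against anti-PD-1. No filter, which adds dim probes to the median of all, gave 0.43 and 0.43 under TP-16, 0.42 and 0.34 under the combination, 0.22 and 0.18 against anti-PD-1, and -0.24 and -0.22 for the departure from additivity. S phase went to 0.0063 (quantile) and 0.0065 (deposited values) for the departure from additivity, and to -0.039 (deposited values) against TP-16. Leaving out arrays spanned -0.097 to 0.022 for S phase under the combination and -0.091 to 0.11 for mitosis against anti-PD-1.

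Log2 differences of the combination that were below 0 turned above it for Cdt1 (0.12), Mcm5 (0.18), Mcm6 (0.071), Pcna (0.36), Plk1 (0.23), Birc5 (0.0031), Cdc20 (0.0019), Kif23 (0.00027) and Tpx2 (0.034) after quantile normalization, for Cdt1 (0.12), Mcm5 (0.19), Mcm6 (0.073), Pcna (0.36), Plk1 (0.23), Birc5 (0.0054), Cdc20 (0.0027), Kif23 (0.0021) and Tpx2 (0.035) with the deposited values, and for Mcm5 (0.099), Plk1 (0.047), Bub1b (0.028), Kif23 (0.016) and Tpx2 (0.021) with normexp correction. With the probes of a gene averaged, Foxm1 gave 0.086 and Rbl1 -0.18. Birc5 in the combination against anti-PD-1 went to 0.00086 (quantile) and 0.0017 (deposited). Leaving out arrays turned the sign for Cdc6 (-0.0050 to 0.20), Mcm3 (-0.0062 to 0.13), Mcm4 (-0.13 to 0.14), Mcm5 (-0.10 to 0.081), Cdc45 (-0.055 to 0.18), Aurkb (-0.059 to 0.15), Plk1 (-0.12 to 0.098), Bub1b (-0.076 to 0.043), Kif20a (-0.081 to 0.16), Kif23 (-0.18 to 0.097) and Tpx2 (-0.13 to 0.047). None of these passed the threshold on the 75th percentile scaling except Birc5 in the combination against vehicle.

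Whether the replicate numbers pair the arrays cannot be told from these values. The differences between replicate 1 and replicate 2 correlated at -0.19 to 0.29 between groups, below 0 in 2 of 6 pairs of groups. With the replicate block 7 of the 11 members still passed. With 2 arrays per group, all on 1 slide, the spread within a group is poorly known.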
